A study of Mus musculus with 7 samples.

Results

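The 8 genes described here are the colony-stimulating factor genes Csf1, Csf2 and Csf3, the cytokine gene Il6, and the receptor chain genes Csf1r, Csf2ra, Csf2rb and Csf3r. They were taken by symbol, and 8 of 8 had a row in each of the 7 single-cell count matrices, among 27998 genes in the CD45+ libraries and 31053 in the 2 pooled libraries. Each gene was described across the leukocyte classes of the mouse heart and blood and across the days after myocardial infarction.

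Colony-stimulating factors are secreted proteins that control how myeloid cells form, survive and act. M-CSF, encoded by Csf1, acts through a receptor tyrosine kinase encoded by Csf1r (CD115) on monocytes and macrophages. GM-CSF, encoded by Csf2, acts through an alpha chain encoded by Csf2ra and the shared beta chain encoded by Csf2rb, which also serves the receptors of interleukin 3 and interleukin 5. G-CSF, encoded by Csf3, acts through Csf3r, which is abundant on neutrophils. Interleukin 6, encoded by Il6, is an acute-phase cytokine that signals through gp130, and the GM-CSF, G-CSF and interleukin 6 receptors all use Janus kinases and STAT proteins. In the infarcted heart neutrophils arrive first, and monocytes that become macrophages follow.

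The mice were male C57BL6/J in the CD45+ experiment. It holds 1 library of hearts without infarction (5 mice) and 1 library each of infarcted hearts at day 1 (5 mice), day 3 (5 mice), day 5 (5 mice) and day 7 (3 mice). Hearts were digested with enzymes for 1 h at 37 °C, and extravascular leukocytes were sorted as cells that carry CD45 but were not stained by an anti-CD45.2 antibody given into the vein. Neutrophils were reduced before loading, so their share of the CD45+ cells is set by hand. The CD11b+ pool holds infarcted hearts of days 1, 3 and 5 (5, 5 and 3 mice), digested the same way, marked with 1 hashtag antibody per day and stained with 10 antibodies against surface proteins. The blood and heart pool comes from C57BL6/J mice of 8 to 10 weeks and holds 7 hashtags, over blood and mechanically dissociated infarcted heart, from mice with no surgery (3 mice), sham surgery with 1 day (3 mice) or 3 days (3 mice) of recovery, and permanent coronary ligation 1 day (5 mice) or 3 days (5 mice) earlier. Its cells were sorted as Ter119-, B220-, NK1.1- and CD11b+, and Ly6G+ and Ly6G- cells were brought to about equal numbers. The labels used here do not pair its 7 hashtags with the conditions, so they are given by number only and are not compared as conditions. Every library or hashtag pools several mice, and no group has mice measured one by one.

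After filtering, 639, 527, 844, 946 and 1795 cells were used at steady state and days 1, 3, 5 and 7 of the CD45+ experiment, 4282 in the CD11b+ pool and 9999 in the blood and heart pool. Median depth lay between 3595 and 9492.5 UMIs (unique transcript molecules) per cell in the CD45+ libraries, and was 18082.5 and 4282 in the 2 pools. In the CD11b+ pool 17.4% of barcodes were above the mitochondrial limit of 10%, against at most 5.12% elsewhere. At most 2 barcodes were shared by any pair of CD45+ libraries, and 28 by the 2 pools. Classes were rebuilt by clustering without the 8 genes. The CD45+ day 1 monocyte/macrophage class stands apart: nearly all its cells come from 1 cluster of 245 cells led by Saa3, Cxcl3 and Arg1, and the 20 neutrophil markers, all of them detected, make up 2.71% of its UMIs beside 2.32% for its own 24 markers. In the other CD45+ monocyte/macrophage sums the neutrophil list made up 0.0176% to 0.378%, and in the CD11b+ pool 0.110% to 0.387%. The part of these cells in the day 1 results was not tested beyond leaving the library out, and those values are given below. Levels are counts of a gene per 1000000 UMIs (CPM) summed over a class in 1 library or hashtag, with exact Poisson 95% intervals that cover counting error only.

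Of the regulatory regions, those of Csf1 and Il6 are shown because Csf1 separated the 2 myeloid classes in every sum and Il6 in monocytes and macrophages was lower than at day 1 at both later days tested. The letters are the 250 bases before each gene's start in the RefSeq annotation of GRCm38.p6, 5′ to 3′ on the gene's own strand, and 5 of the 8 genes had an entry. Capitals mark matches on either strand to ggg, any 2 bases and tttcc (a kappaB motif), ttgngcaa (a C/EBP motif) or tgantca (an AP-1 motif, which is its own reverse complement apart from its middle base).

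Csf1 (chr3:107760470-107760719, minus strand): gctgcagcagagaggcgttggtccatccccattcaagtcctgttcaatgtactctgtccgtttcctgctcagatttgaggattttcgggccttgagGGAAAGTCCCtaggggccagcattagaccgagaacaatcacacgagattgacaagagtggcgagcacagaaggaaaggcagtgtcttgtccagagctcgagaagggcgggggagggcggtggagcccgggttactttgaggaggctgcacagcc
Il6 (chr5:30012864-30013113, plus strand): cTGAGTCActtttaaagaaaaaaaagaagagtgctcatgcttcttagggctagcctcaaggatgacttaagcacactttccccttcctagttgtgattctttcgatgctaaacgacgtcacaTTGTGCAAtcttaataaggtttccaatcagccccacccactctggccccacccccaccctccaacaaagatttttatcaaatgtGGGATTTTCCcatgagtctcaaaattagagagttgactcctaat

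The Il6 window holds 1 match to each of the 3 motifs, at 249 (AP-1), 128 (C/EBP) and 44 (kappaB) bases before the start. The Csf1 window holds 1 kappaB match on the opposite strand, 154 bases before the start. Of the 4 motifs searched, the other, gaggaag (a PU.1 motif), had no match in either window. In the promoters not shown, Csf2 held a C/EBP match, and Csf2ra and Csf3r held PU.1 matches. Among 32851 promoters of the same length, 1.41% hold the kappaB letters, 2.61% the C/EBP letters, 6.75% the AP-1 letters and 10.6% the PU.1 letters. A match describes the letters only, and no binding was measured in these samples.

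Csf1 (chr3:107741048-107760469, minus strand, GRCm38) was higher in neutrophils than in monocytes and macrophages in all 3 experiments. In neutrophils of the CD45+ libraries it stood at 149 CPM at day 1 (95% interval 124 to 176, 130 UMIs), 234 at day 3 (190 to 285) and 439 at day 5 (322 to 586, 40 cells). The CD11b+ pool gave 962 CPM at day 1 (905 to 1021), 1143 at day 3 (1110 to 1176) and 863 at day 5 (803 to 926). Monocytes and macrophages of the same sums lay far lower, at 5.11, 3.47 and 4.64 CPM in the CD45+ libraries and 36.8, 28.3 and 14.7 CPM in the pool. The 6 neutrophil sums did not overlap the 6 monocyte/macrophage sums, and the ratio of the classes was 29.1, 67.4 and 94.8 at days 1, 3 and 5 in the CD45+ libraries and 26.1, 40.4 and 58.8 in the pool. Of 10158 genes measured in both classes, 4.39% were higher in all 6 neutrophil sums than in all 6 monocyte/macrophage sums, and among the 8 genes these were Csf1 and Csf3r.

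The level of Csf1 in neutrophils differed between the experiments more than between days: the pool lay at 863 to 1143 CPM and the CD45+ libraries at 149 to 439 CPM. Chemistry, sort and depth differ between the 2 experiments and cannot be told apart here. When each cell was classed by its own markers instead of its cluster, the CD45+ neutrophil levels of Csf1 were 52.9, 84.6 and 191 CPM at days 1, 3 and 5. The CD45+ monocyte/macrophage sums held 6 to 31 Csf1 UMIs each, at 1.55 CPM at steady state and 5.11, 3.47, 4.64 and 3.64 CPM at days 1, 3, 5 and 7. The B, T and NK cells of the same libraries held 3, 0, 0, 2 and 6 UMIs (13.6, 0, 0, 8.72 and 1.62 CPM), and the counting intervals overlapped in 5 of 5 libraries. Of the Csf1 UMIs, 66.3% in the CD45+ libraries, 77.6% in the CD11b+ pool and 85.3% in the blood and heart pool lay in neutrophils. After thinning every cell to 2000 UMIs, 24.4% of CD45+ neutrophils, 62.4% of CD11b+ pool neutrophils and 15.8% of blood and heart pool neutrophils had a Csf1 UMI, against 0.393% of CD45+ B cells. Before thinning the CD45+ neutrophils stood at 33.5% (median 2998 UMIs per cell) and the B cells at 0.588% (median 2760).

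In the blood and heart pool the neutrophil level of Csf1 was 163, 57.1, 105, 53.7, 104, 104 and 311 CPM in hashtags 1 to 7. Hashtag 7 (281 to 343) stood above the other 6, and hashtags 2 (50.3 to 64.6) and 4 (46.5 to 61.6) stood below them. Within this pool the neutrophil cluster led by Cxcl2, Il1r2 and Basp1 had 262 CPM and that led by Fgl2 and Il1b 165 CPM, while the clusters led by Retnlg and by Wfdc17 had 48.5 and 60.8 CPM. The highest level in the pool was not in neutrophils: 42 basophil/mast-like cells held 160 Csf1 UMIs, or 928 CPM (790 to 1083). A UMI was seen in 39 of the 42 cells, from 6 hashtags.

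**Figure D1:**
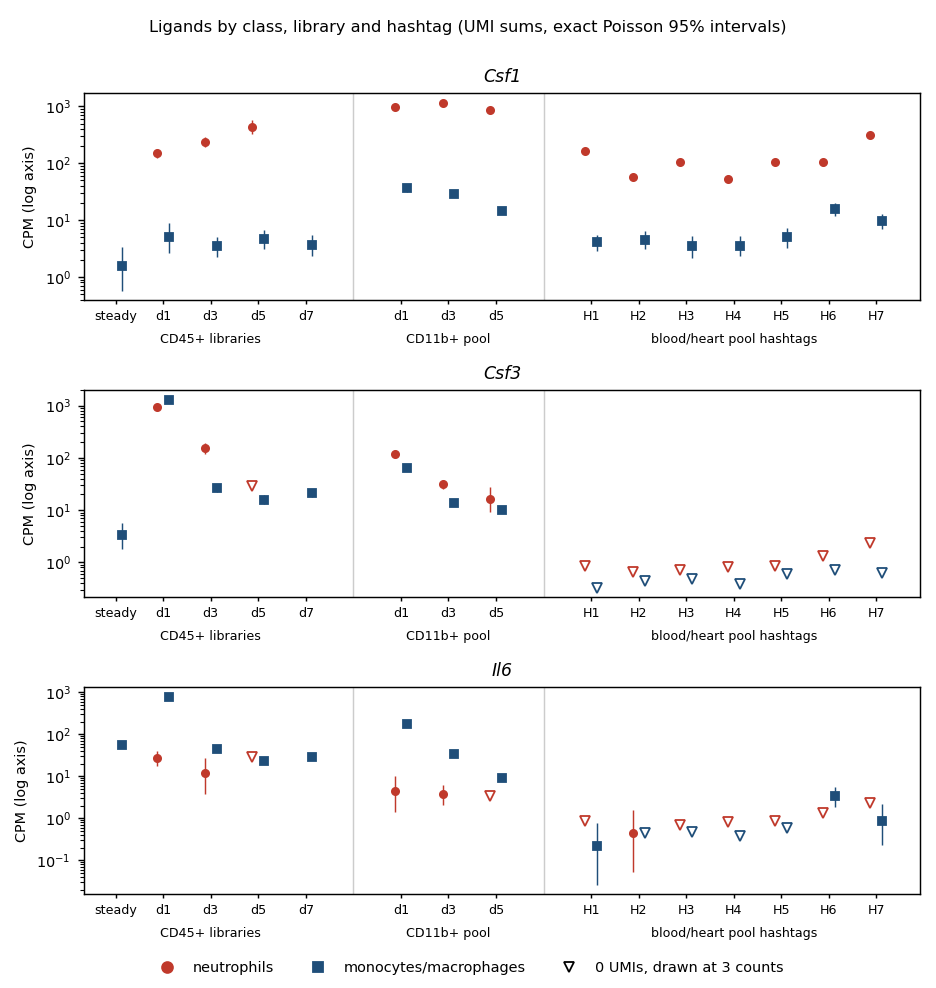
Level of Csf1, Csf3 and Il6 in CPM on a log axis for neutrophils (red circles) and monocytes/macrophages (blue squares) in each CD45+ library, each day of the CD11b+ pool and each numbered hashtag (H1 to H7) of the blood and heart pool, with exact Poisson 95% intervals; open triangles are sums with 0 UMIs, drawn at 3 counts. Csf1 lies higher in neutrophils in every sum, from 53.7 to 1143 CPM, and Csf3 and Il6 peak at day 1 and are at or near 0 in the hashtags.

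Csf3 (chr11:98701263-98703629, plus strand), which encodes the neutrophil growth factor G-CSF, was highest at day 1. Monocytes and macrophages of the CD45+ libraries had 3.36 CPM at steady state (13 UMIs), 1282 at day 1 (1236 to 1328, 3010 UMIs), 26.3 at day 3, 16.004 at day 5 and 21.2 at day 7. CD45+ neutrophils had 944 CPM at day 1 (881 to 1011, 826 UMIs), 153 at day 3 (118 to 196) and 0 of 104690 UMIs at day 5. With cells classed by their own markers the day 3 neutrophil level was 66.8 CPM. The pool followed the same order at lower levels, with 64.0, 13.9 and 9.92 CPM in monocytes and macrophages and 118, 31.1 and 16.7 CPM in neutrophils. In the B, T and NK cells of the CD45+ day 1 library the Csf3 level was 36.01 CPM (4 UMIs). No Csf3 UMI was found in any class or hashtag of the blood and heart pool. A floor of 3 counts there is 0.0682 CPM in monocytes and macrophages and 0.13 CPM in neutrophils.

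The fall of Csf3 passed the test in both classes. In neutrophils the log2 change from day 1 was -3.02 (SE 0.59, adjusted p = 0.0127, edgeR) at day 3, with -3.31 in the CD45+ libraries and -2.56 in the pool, and -4.98 (SE 0.72, adjusted p = 0.00127) at day 5. Against the day 5 CD45+ neutrophils, which had no UMI, the fall was at least 32.9-fold with a floor of 3 counts in that sum, and in the pool it was 7.08-fold (4.14 to 13.01). The day 3 neutrophil call was not made by DESeq2 (adjusted p = 0.316). In monocytes and macrophages the change was -5.08 (SE 1.03, adjusted p = 0.0374, edgeR) at day 5. At day 3 it was -4.52 (SE 1.01, adjusted p = 0.117, edgeR), and DESeq2 called both changes. Without the CD45+ day 1 library these became -2.88 (adjusted p = 1.93e-06) and -2.29 (adjusted p = 3.78e-05), and without the CD45+ day 5 library the day 5 value was -3.94 (adjusted p = 0.051).

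Il6 (chr5:30013114-30019981, plus strand), whose promoter is shown above, was higher in monocytes and macrophages than in neutrophils of the same sums. In monocytes and macrophages it was highest at day 1. In the CD45+ libraries it stood at 55.0 CPM at steady state (47.9 to 62.9), 774 at day 1 (739 to 810, 1818 UMIs), 43.7 at day 3, 22.7 at day 5 and 28.3 at day 7. The pool gave 172 CPM at day 1 (161 to 183), 34.0 at day 3 and 9.16 at day 5. From day 1 to day 3 the level fell 17.7-fold in the CD45+ libraries (15.7 to 20.04) and 5.04-fold in the pool (4.62 to 5.50), and from day 1 to day 5 it fell 34.0-fold and 18.7-fold. The fitted log2 change was -3.46 at day 3 (SE 0.46, adjusted p = 0.049, edgeR) and -4.98 at day 5 (SE 0.48, adjusted p = 0.00685). Without the CD45+ day 1 library the values were -2.64 (adjusted p = 3.78e-05) and -4.14 (adjusted p = 9.4e-07). The day 3 call was lost without the pool's day 3 sum (adjusted p = 0.0549) and with finer clusters (-3.27, adjusted p = 0.0665), while the day 5 call held in each of the 6 fits that left out 1 sum.

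In neutrophils, as clustered, Il6 lay lower. The CD45+ libraries gave 27.4 CPM at day 1 (24 UMIs), 11.8 at day 3 and 0 UMIs at day 5, and the pool 4.45, 3.70 and 0 UMIs. In the same day 1 library the 16 T cells held 14 Il6 UMIs (268 CPM, 147 to 449.8). The 13 B cells held 0 of 52673 UMIs, where a floor of 3 counts is 57.0 CPM. CD45+ dendritic cells had 116 CPM at steady state (80.2 to 162, 34 UMIs, 21 cells), above the monocytes and macrophages there. At days 1, 3, 5 and 7 they had 54.0, 3.36, 3.45 and 16.4 CPM, below them. Unnamed cells of the steady state library had 171 CPM (124 to 229, 32 cells). The neutrophil value depends on the clusters: with each cell classed by its own markers, the day 1 CD45+ neutrophils numbered 393 cells and held 827 Il6 UMIs (317 CPM). The fit called Il6 lower in neutrophils at day 5 (adjusted p = 0.0321, edgeR), but both day 5 sums held 0 UMIs, no fold is given, and the call was lost without the CD45+ day 1 (adjusted p = 0.23), CD45+ day 5 (adjusted p = 0.157) or pool day 5 sum (adjusted p = 0.138). As clustered, the CD45+ day 1 library held 3010 Csf3 to 1818 Il6 UMIs in monocytes and macrophages and 826 to 24 in neutrophils. This difference in proportion rests on the same clusters, as own-marker neutrophils there held 827 Il6 UMIs.

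A single cluster of the CD11b+ pool, led by Arg1, Ccl24 and Saa3, held most of the Il6 UMIs of the class: 93.2% at day 1, 88.6% at day 3 and 74.0% at day 5. This cluster held 121 of 229 cells of the class at day 1 (52.8%), 97 of 1100 at day 3 (8.82%) and 64 of 1356 at day 5 (4.72%). Within it the Il6 level was 263 CPM at day 1 (245 to 281), 470.3 at day 3 (443 to 499) and 173 at day 5 (153 to 194), highest at day 3. In the rest of the class Il6 stood at 29.8, 4.14 and 2.48 CPM. Csf3 was spread otherwise: the cluster held 331 of the 341 Csf3 UMIs of the class at day 1, 87 of 495 at day 3 and 32 of 421 at day 5. Its Csf3 level was 102, 38.0 and 19.2 CPM. These are values of 1 hashtag each, with no test between days, and Arg1 is among the markers of the class.

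In the CD45+ day 1 library 158 of 249 monocytes and macrophages had an Il6 UMI and 162 a Csf3 UMI, and the 25 cells with the most UMIs of each gene held 62.4% of the Il6 and 62.9% of the Csf3. A Csf3 UMI was seen in 69.0% of the cells with Il6 and in 58.2% of the cells without it. In the pool at day 1 the counts were 83 and 35 of 229 cells, and Csf3 was seen in 28.9% of cells with Il6 and 7.53% of cells without. Depth per cell also enters such shares and was not matched here.

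In the blood and heart pool 55 Il6 UMIs were found in all. Basophil/mast-like cells held 33 of them, at 191 CPM, in 20 of 42 cells from 6 hashtags. Monocytes and macrophages held 20, of which 14 lay in hashtag 6, 4 in hashtag 7 and 2 in hashtag 1, and neutrophils held 2. Hashtag 6 reached 3.39 CPM (1.85 to 5.68), far below the day 1 levels of the digested hearts. Handling of the tissue, the mixture of blood and heart and the condition differ between these experiments and cannot be told apart.

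Csf2 (chr11:54247271-54249667, minus strand) was nearly absent. The CD45+ libraries held 30 UMIs in all, 21 of them in 4 of the 14 T cells at steady state and 7 in 4 of the 524 monocytes and macrophages there. The remaining 2 were in 1 NK cell at day 7 and 1 neutrophil at day 1. The pool held 11 Csf2 UMIs and the blood and heart pool 0. Both pools were sorted for CD11b, so these counts say little on lymphoid cells. Csf2 did not pass the filter on low counts and was not tested.

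Csf1r, on chromosome 18, was higher in monocytes and macrophages than in neutrophils. In the CD45+ libraries it stood at 1033 CPM at steady state (1001 to 1065), 179 at day 1 (162 to 197), 421 at day 3, 464 at day 5 and 516 at day 7. The steady state level was 5.78 times the day 1 level (5.22 to 6.40), from 1 library each and with no test. In the pool it was 335 CPM at day 1 (319 to 351), 358 at day 3 and 437 at day 5. Neutrophils of the same sums had 25.1, 123 and 95.5 CPM in the CD45+ libraries and 86.4, 111 and 108 CPM in the pool. With own-marker classes the CD45+ neutrophil values at days 1 and 3 were 123 and 304 CPM. The 6 monocyte/macrophage sums lay above all 6 neutrophil sums, which held for 13.9% of the genes measured in both classes, and the ratio ran from 3.22 to 7.11.

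The change of Csf1r between days did not pass the test in either class. In monocytes and macrophages the log2 change from day 1 was 0.41 (SE 0.28, adjusted p = 0.472, edgeR) at day 3 and 0.59 (SE 0.28, adjusted p = 0.204) at day 5. The 2 experiments differed, with 0.98 and 1.07 in the CD45+ libraries and -0.10 and 0.19 in the pool. Without the pool's day 1 sum the values were 0.94 and 1.13, and the day 3 neutrophil value was 1.41. That fit leaves the CD45+ library, whose monocyte/macrophage class stands apart, as the only day 1 sum. The size of the change thus turns on which day 1 sum is used.

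Within monocytes and macrophages the Csf1r level followed the cluster. At CD45+ steady state most cells lay in a cluster led by Hspa1a, Mgl2, Cbr2 and Folr2, which had 1019 CPM over all libraries. Its leading genes include the stress genes Hspa1a and Atf3, and none of the class's markers is among its top 10, though 9 were detected above the other clusters. The day 1 cluster led by Saa3, Cxcl3 and Arg1 had 187 CPM, that led by Plac8, Chil3 and Ly6c2 392.3, and that led by Ms4a7, Gpnmb and Trem2 463. In the blood and heart pool the cluster led by Ear2, Ace and Spn, genes of nonclassical monocytes, had 1050.5 CPM. The cluster led by Chil3 and Ccr2 had 429 CPM and that led by Cd74, H2-Ab1 and Spp1 had 394. By hashtag the monocyte/macrophage level was 443, 609, 559, 565, 569, 439.8 and 418 CPM in hashtags 1 to 7.

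The antibody against CD115 gave the Csf1r protein in the blood and heart pool. Its median was 23 UMIs per cell in monocytes and macrophages, 6 in neutrophils, 5 in B-like cells, 4 in T-like cells and 3 in basophil/mast-like cells. Neutrophils had 135 to 162 CPM of Csf1r transcript in the 7 hashtags, above T cells (34.8) and B cells (29.4), while their antibody count was near that of those cells. Among monocyte clusters the protein did not order as the transcript did: the median was 22 UMIs in the Ear2 and Ace cluster with 1050.5 CPM and 25 in the Chil3 and Ccr2 cluster with 429 CPM. The cluster led by Cd74 and H2-Ab1 had the lowest protein, 16 UMIs, with 9 in hashtag 7 and 15 in hashtag 6. Within the class as a whole, the cells in the highest tercile of CD115 (after a centred log ratio over antibodies) had 1.17 to 1.54 times the Csf1r CPM of the lowest tercile, in 7 of 7 hashtags.

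**Figure D2:**
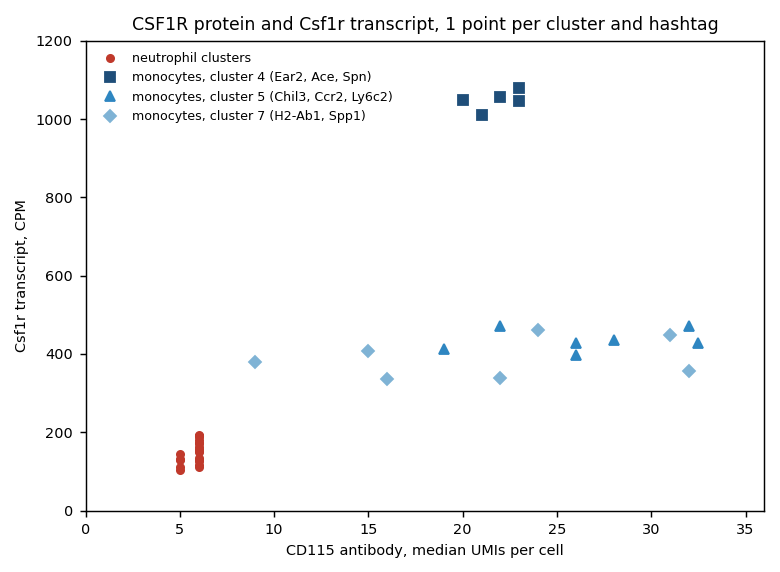
Csf1r transcript level in CPM against the median CD115 antibody UMIs per cell, 1 point per cluster and hashtag of the blood and heart pool with at least 30 cells; red circles are neutrophil clusters and blue symbols are monocyte clusters 4, 5 and 7. The neutrophil points sit at 5 to 6 antibody UMIs, and the clusters at 1050.5 and 429 CPM overall overlap in antibody count.

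Csf2ra (chr19:61223957-61228429, minus strand), the ligand-specific chain of the GM-CSF receptor, was at similar levels in both myeloid classes. Neutrophil sums ran from 266 to 411 CPM and monocyte/macrophage sums from 198 to 321 CPM at days 1, 3 and 5, and the 2 ranges overlap. Steady state monocytes and macrophages had 205 CPM (191 to 220) and those of day 7 had 185 CPM (174 to 196). In the blood and heart pool the levels were 251 to 313 CPM in neutrophils and 280.4 to 302 CPM in monocytes and macrophages. T cells (32.6), B cells (47.1) and basophil/mast-like cells (29.0) lay far lower there. Dendritic cells had 220 CPM in the CD45+ libraries and 255 CPM in the pool. No day change of Csf2ra passed the test: in monocytes and macrophages it was -0.26 (SE 0.19, adjusted p = 0.499, edgeR) at day 3 and -0.64 (SE 0.19, adjusted p = 0.0822) at day 5. DESeq2 called the day 5 value (-0.66, adjusted p = 0.0449), as did edgeR without the CD45+ day 1 library (-0.75, adjusted p = 0.00762).

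Csf2rb (chr15:78325752-78353847, plus strand), the shared beta chain, fell in monocytes and macrophages between day 1 and day 5. The pool had 490.2 CPM (472 to 509) at day 1, 226 at day 3 and 158 at day 5, and the CD45+ libraries had 149.9 (135 to 166), 132 and 83.0, with 37.5 at steady state (31.6 to 44.1) and 103 at day 7. The fitted log2 change was -1.52 at day 5 (SE 0.25, adjusted p = 0.0235, edgeR), with -1.16 in the CD45+ libraries and -1.83 in the pool, and -0.90 at day 3 (SE 0.24, adjusted p = 0.164). The day 5 call was lost without the pool's day 5 sum (-1.39, adjusted p = 0.106). The day 3 value passed without CD45+ day 1 (-1.21, adjusted p = 0.000647), without pool day 1 (-0.48, adjusted p = 0.0473) and with DESeq2 (-0.92, adjusted p = 0.0373).

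Neutrophils had 139, 132 and 162 CPM of Csf2rb in the CD45+ libraries, 589, 366 and 483 in the pool, and 404 to 675 in the blood and heart pool, where hashtag 6 was highest. Over all hashtags of the blood and heart pool neutrophils had 476 CPM (468 to 485) and monocytes and macrophages 215 (210 to 219). The day changes in neutrophils did not pass the test (-1.05, SE 0.39, adjusted p = 0.165, and -1.03, SE 0.40, adjusted p = 0.123, edgeR). Without the CD45+ day 1 sum they were -1.22 and -1.14. In CPM the day 3 and day 5 levels were 0.948 and 1.16 times that of day 1 in the CD45+ libraries. In the pool they were 0.622 and 0.820 times that of day 1. The CD45+ day 5 level was thus not lower than day 1 in CPM, and the neutrophil change depends on the scaling of the fit. Dendritic cells stood higher than monocytes and macrophages, at 248 CPM against 100.3 in the CD45+ libraries and 524 against 208 in the pool. Basophil/mast-like cells had the highest level, 1873 CPM (323 UMIs), with a UMI in 42 of 42 cells, against 15.2 CPM in T cells and 76.5 in B cells. Csf2rb2, the related chain of the interleukin 3 receptor in mice, lies 20030 bases away on the opposite strand (chr15:78282507-78305721). Reads that fit both copies could be split or dropped by the counting, so the levels of the pair are uncertain.

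Csf3r (chr4:126024550-126044440, plus strand), the G-CSF receptor, was highest in neutrophils of the blood and heart pool. It had 3355, 3721, 3644, 3679, 3590.2, 3394 and 2809 CPM in hashtags 1 to 7, lowest in hashtag 7. Neutrophils of digested hearts had 965, 1110 and 932 CPM at days 1, 3 and 5 of the pool and 94.9, 661 and 458 in the CD45+ libraries, where day 1 (75.6 to 118) lay below the other days. With own-marker classes the CD45+ values were 45.6, 274 and 286 CPM. Thinned to 2000 UMIs, 99.2% of neutrophils in the blood and heart pool, 81.6% in the CD11b+ pool and 42.5% in the CD45+ libraries had a Csf3r UMI, against 0.687% of CD45+ B cells. Without thinning these shares were 99.8%, 92.2%, 52.0% and 0.979%. The CD45+ day 1 neutrophils were mostly the cluster led by Ngp, Retnlg and Lcn2, which had 96.96 CPM, while the cluster led by G0s2 and Il1r2 had 636 CPM.

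Monocytes and macrophages held 20.7 to 31.5 CPM of Csf3r in the CD45+ libraries and 36.6 to 45.8 CPM in the CD11b+ pool. In the blood and heart pool they had 143 to 254 CPM by hashtag, and 209 CPM over all hashtags (204 to 213). T cells had 80.5 CPM (56.7 to 111), basophil/mast-like cells 110.2 (66.3 to 172) and B cells 179, where 1 of the 21 cells held 42 of the 61 UMIs. The small cluster led by Apoe, Pou2f2 and Ace (109 cells) stood out within the class with 1347 CPM, and an unnamed cluster of 33 cells led by the platelet genes Pf4, Ppbp and Itga2b had 3515 CPM. Doublets with neutrophils were not resolved in these clusters. The 6 neutrophil sums of days 1 to 5 lay above all 6 monocyte/macrophage sums, with ratios from 3.84 to 26.4. Day changes of Csf3r did not pass the test in neutrophils (0.72, SE 0.52, adjusted p = 0.495 at day 3, and -0.11, SE 0.51, adjusted p = 0.918 at day 5, edgeR). As scaled for the fit, the experiments differed in sign, with 2.09 and 1.02 in the CD45+ libraries and -0.44 and -0.84 in the pool. In CPM the day 3 and day 5 levels were 6.97 and 4.83 times that of day 1 in the CD45+ libraries. In the pool they were 1.15 and 0.965 times that of day 1, so its sign at day 3 depends on the scaling. Without the pool's day 1 sum the day 3 value was 1.92. Without the CD45+ day 1 sum the day 3 value was -0.27 (adjusted p = 0.79).

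**Figure D3:**
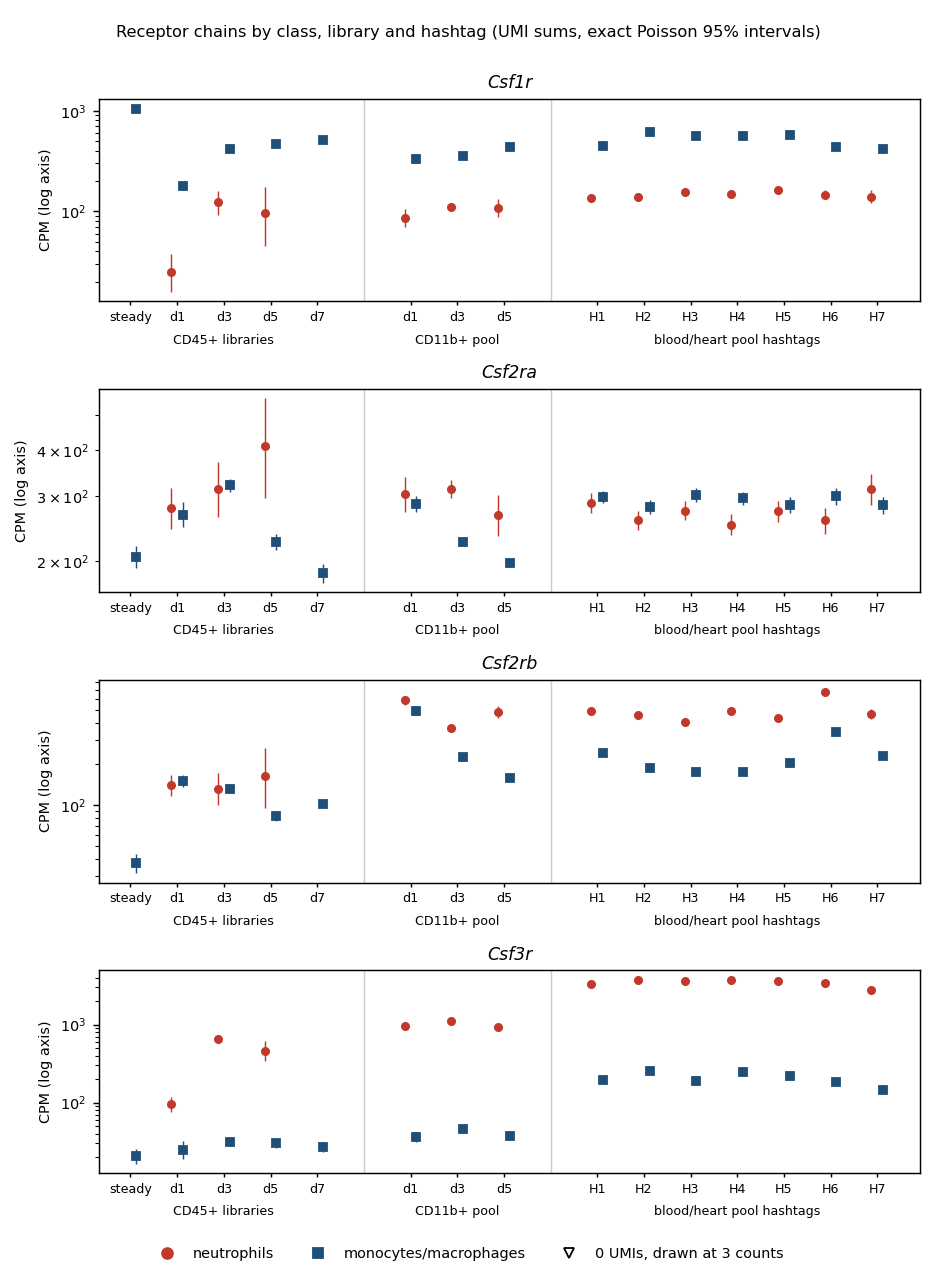
Level of Csf1r, Csf2ra, Csf2rb and Csf3r in CPM on a log axis for neutrophils (red circles) and monocytes/macrophages (blue squares) in each library, day and numbered hashtag, with exact Poisson 95% intervals. Csf1r lies higher in monocytes/macrophages and Csf3r in neutrophils in every sum. Csf2ra overlaps between the classes, and Csf2rb does so at days 1, 3 and 5. Over all hashtags Csf2rb was 476 CPM in neutrophils and 215 CPM in monocytes/macrophages.

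Across days, 7 of the 8 genes passed the filter on low counts in each class. With classes as clustered, edgeR called 0 of them higher in any comparison of days. From day 1 to day 3, 1 of 7 was called lower in neutrophils (Csf3) and 1 of 7 in monocytes and macrophages (Il6). Of all 6169 genes tested in neutrophils 2.42% were called, 0.535% higher and 1.88% lower. Of the 10594 tested in monocytes and macrophages 0.755% were called, 0.17% higher and 0.585% lower. From day 1 to day 5, 2 of 7 were called lower in neutrophils (Csf3 and Il6) and 3 of 7 in monocytes and macrophages (Il6, Csf3 and Csf2rb). There 7.12% of all genes were called in neutrophils, 1.82% higher and 5.3% lower, and 10.2% in monocytes and macrophages, 4.38% higher and 5.8% lower. DESeq2 called 1 of 7 in neutrophils at day 5 (Csf3), beside 340 of all genes. In monocytes and macrophages it called 4 of 7 (Il6, Csf3, Csf2rb and Csf2ra), beside 1634. At day 3 it called 0 of 7 in neutrophils, beside 141, and 3 of 7 in monocytes and macrophages (Il6, Csf3 and Csf2rb), beside 518. The median log2 change of the 7 genes at day 5 was -1.16 in monocytes and macrophages, beside -0.01 over all genes tested. From day 3 to day 5 edgeR called 0 of 7 in either class, among 0.0% of all genes in neutrophils and 0.0283% in monocytes and macrophages, all of them higher. At an unadjusted p under 0.05, 2 of 7 were lower there in each class (Il6 and Csf3 in neutrophils, Il6 and Csf2rb in monocytes and macrophages), beside 126 of 6169 and 796 of 10594 genes in either direction, and DESeq2 called 0 of the 7. The comparisons with day 1 share the day 1 sums.

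The day effects were also compared between the classes. None of the 7 genes differed between classes by edgeR's interaction test in any of the 3 comparisons of days, among 0.0197%, 0.591% and 0.0% of 10158 genes (0.246% higher and 0.345% lower at day 5 against day 1). One gene, Il6 from day 1 to day 3, had an unadjusted p under 0.05 (-2.16, SE 0.77, adjusted p = 0.323), as had 1165 of all 10158 genes. It passed the adjusted threshold without the monocyte/macrophage day 1 sum of the pool (-2.82, adjusted p = 0.0109), as did Csf3 (-3.002, adjusted p = 0.000928). A call in one class only is therefore not shown to be a difference between classes.

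These fits scale each sum by the trimmed mean of M values, and the scale matters in neutrophils. When sums were scaled by their totals instead, the median log2 change over all neutrophil genes was 0.68 at day 3 and 0.89 at day 5 (0.01 and -0.03 with trimmed means), and that of monocytes and macrophages 0.22 and 0.23 (0.00 and -0.01). The called genes then split into 358 higher and 50 lower in neutrophils at day 3 (33 and 116 with trimmed means) and 1101 and 89 at day 5 (112 and 327). In monocytes and macrophages the split at day 5 was 621 and 345 (464 and 614 with trimmed means). Csf1 in neutrophils was -0.23 and -0.33 at days 3 and 5 with trimmed means and 0.42 and 0.70 with total counts, with no call either way (adjusted p = 0.812, 0.681, 0.501 and 0.246, edgeR), so its direction over time is not settled. Csf2ra changed sign likewise without a call in neutrophils. The falls of Csf3 kept their direction and their call in neutrophils under total counts (-2.34 and -4.03), and Il6 in monocytes and macrophages kept its direction and missed the threshold at day 3 (-3.23, adjusted p = 0.0728).

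**Figure D4:**
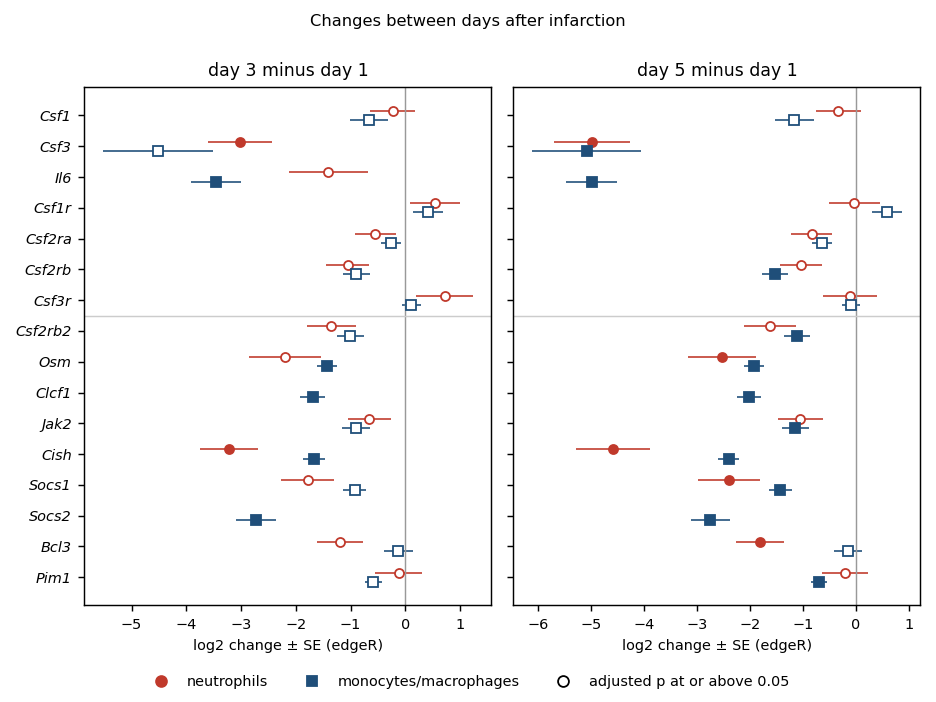
Log2 change from day 1 to day 3 (left) and day 5 (right) with its standard error from edgeR, in neutrophils (red circles) and monocytes/macrophages (blue squares), for 7 of the 8 genes above the line and for related genes called in a comparison below it; filled symbols have an adjusted p under 0.05. The filled symbols of the 8 genes all lie below 0, between -1.52 and -5.08; Il6 in neutrophils at day 5 is not drawn because both sums held 0 UMIs.

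Other genes of these pathways were taken from a list of 45 (family ligands, receptor chains, kinases and transducers, and feedback genes and targets), of which 27 were tested in neutrophils and 35 in monocytes and macrophages. None was called higher in any comparison with day 1. Of all genes tested in neutrophils, 1.88% were called lower at day 3 and 5.3% at day 5. In neutrophils 1 of 27 fell from day 1 to day 3, Cish, a feedback inhibitor induced by STAT5 (-3.23, SE 0.53, adjusted p = 0.00249, edgeR), a call lost without the pool's day 3 sum (adjusted p = 0.191). At day 5, 4 of 27 fell: Cish (-4.59), Osm, a cytokine of the interleukin 6 family (-2.52), the feedback inhibitor Socs1 (-2.39) and Bcl3, a partner of NF-kappaB (-1.81). With total counts or own-marker classes Bcl3, Osm and Socs1 were not called. Without the CD45+ day 5 sum the calls on Bcl3 and Socs1 were lost, and without the pool's day 1 or day 5 sum those on Osm and Socs1. The median change of the list was -0.30 and -0.56, against 0.01 and -0.03 for all genes tested.

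In monocytes and macrophages 4 of 35 fell from day 1 to day 3, beside 0.585% of all genes tested called lower. The 4 were Socs2 (-2.73), Clcf1, a further cytokine of the interleukin 6 family (-1.69), Cish (-1.66) and Osm (-1.43). Without the pool's day 3 sum none of these 4 calls was made, nor with total counts, and without the CD45+ day 3 sum those on Cish and Clcf1 were lost. At day 5, 8 of 35 fell, beside 5.8% of all genes tested called lower. The 6 largest changes were Socs2 (-2.74), Cish (-2.40), Clcf1 (-2.02), Osm (-1.92), Socs1 (-1.42) and the kinase Jak2 (-1.14). Csf2rb2 (-1.11) and the kinase gene Pim1 (-0.69) were the other 2. The calls on Socs2, Cish, Clcf1 and Osm at day 5 held in each fit that left out 1 sum. Those on Socs1, Jak2, Csf2rb2 and Pim1 were each lost without the CD45+ day 5 or the pool's day 5 sum, those on Jak2, Csf2rb2 and Pim1 also without the pool day 3 sum or with total counts (Csf2rb2 -0.87, adjusted p = 0.0869), and that on Pim1 also without the CD45+ day 3 sum. By group, 2 of 4 tested family ligands, 1 of 6 receptor chains, 1 of 14 kinases and transducers and 4 of 11 feedback genes fell at day 5. The list's median was -0.24 and -0.23, against 0.00 and -0.01 for all genes tested.

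Surface antibodies gave a second view of which monocytes and macrophages of the CD11b+ pool held each transcript. Cells were split within each day into terciles of an antibody, and the CPM of the highest tercile was divided by that of the lowest. For Ly6C, a marker of inflammatory monocytes, the ratio was above 1 on 3 of 3 days for Csf1 (4.46 to 5.35), Csf3r (2.00 to 3.46), Csf2rb (1.67 to 2.68) and Csf2ra (1.50 to 2.35). For MSR1, a macrophage scavenger receptor, it was below 1 on 3 of 3 days for Csf1 (0.248 to 0.357), Csf3r (0.174 to 0.444), Csf2rb (0.394 to 0.576), Csf2ra (0.499 to 0.758) and Csf1r (0.742 to 0.891). For Il6 the ratio was above 1 on 3 of 3 days for MSR1 (3.24 to 5.10) and F4/80 (1.20 to 3.56). For CD64, another macrophage antibody, it was 1.21, 0.187 and 0.157 at days 1, 3 and 5, and for Cx3cr1 0.888, 0.948 and 0.180, so these antibodies did not point one way. The Ly6C ratio of Csf1 in monocytes and macrophages of the blood and heart pool was below 1 in 7 of 7 hashtags (0.121 to 0.993), and that of Csf3r in 5 of 7 (0.415 to 1.09), unlike in the CD11b+ pool. Depth differed between terciles, with a median UMI count in MSR1-high cells 1.16 to 1.57 times that of MSR1-low cells. In Ly6C-low and Ly6C-high cells the medians were 19780 and 23942 UMIs at day 1, and 42038 and 23190 at day 3. At day 5 they were 35859.5 and 20347.5.

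The neutrophil antibody Ly6G also moved with Csf1 and Csf3r in this class. In Ly6G-high cells Csf1 stood 2.53 to 7.59 times and Csf3r 1.75 to 6.16 times as high as in Ly6G-low cells, on 3 of 3 days. Neutrophil transcripts or antibody carried over into these cells were not resolved, and their part was not tested. In neutrophils of the blood and heart pool Csf1 was higher in the highest tercile of CD11b, the integrin raised on activated cells, with ratios from 1.80 to 6.66 in 7 of 7 hashtags. It was lower in the highest tercile of CD62L, a selectin shed on activation, with ratios from 0.235 to 0.590 in 7 of 7 hashtags. In monocytes and macrophages of that pool Csf1r was lower with high Ly6C (0.399 to 0.958) and with high CD62L (0.360 to 0.919) in 7 of 7 hashtags.

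**Figure D5:**
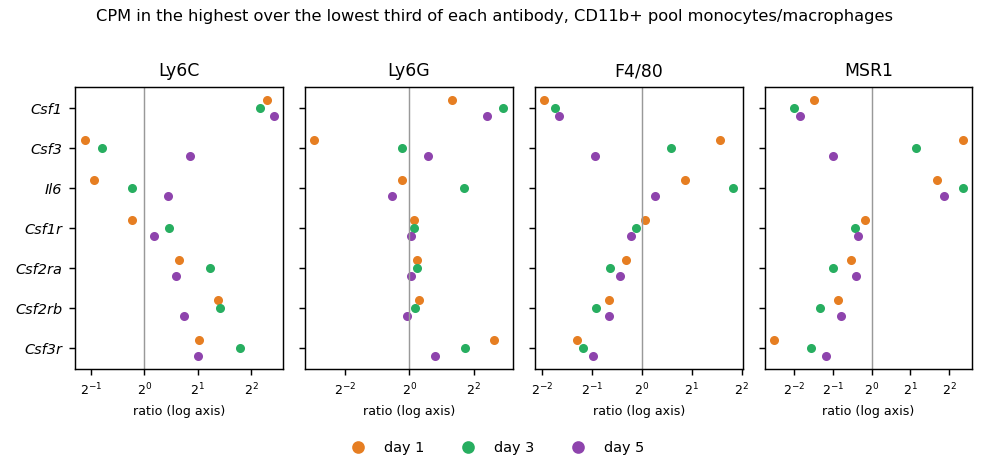
CPM in the highest over the lowest tercile of Ly6C, Ly6G, F4/80 and MSR1 antibody on a log axis, for monocytes/macrophages of the CD11b+ pool at day 1 (orange), day 3 (green) and day 5 (purple), 1 row per gene; a point is drawn where both terciles held more than 3 UMIs. Csf1 lies at 4.46 to 5.35 for Ly6C and 0.248 to 0.357 for MSR1, and Il6 at 3.24 to 5.10 for MSR1.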

How the data were processed

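Single-cell RNA was measured in 7 10x libraries. The deposited matrices hold raw UMI counts per gene and cell, made by the authors with Cell Ranger per the submitters' processing notes, on mm10. The file headers of both pools name software version 3.0.2. The 8 genes and all lists were chosen with earlier results of these data known. Cells needed 200 genes and at most 10% mitochondrial counts. Hashtags were called by a 2-component mixture, several or no hashtag was left out, and Scrublet, run on the CD45+ libraries only, removed 12 doublets, so others may remain. In the pools only cells with several hashtags were removed as doublets. Cells were clustered per experiment (scanpy 1.11.5, resolution 0.5) without the 8 genes. Clusters were named "like" a class from fixed markers, with at least 3 detected. The day 1 cluster led by Saa3 was tied between 2 names, and the rule that settled it was chosen after the clusters were seen.

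Counts were summed per class, day and experiment (at least 30 cells) and fitted with edgeR 4.0.16 (quasi-likelihood, day and experiment as terms, 6 sums per class, 12 for the interaction). Benjamini-Hochberg adjustment ran over all genes tested, with 0.05 as threshold, and the fit was tested on simulated data. There 200 genes were changed by a log2 of 2 between day 1 and day 3. The fit recovered 60.0% of them in neutrophils and 74.5% in monocytes and macrophages. False ones made up 0.826% and 5.10% of the calls. Named pathway genes are those past the threshold, at most the 6 largest each way per comparison. Of the pathway list 1 gene is not reported here. Named like genes are the 3 of highest Pearson r for each gene with a mean of at least 20 CPM. DESeq2 1.42.0, other scalings, filters and clusterings, and leaving out each sum, are alternatives. Sums pool mice, so p-values measure the spread between 2 experiments and days only.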

Additional observations from a re-analysis of the deposited data

How the results depend on the processing

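Groups share day numbers across 2 experiments only, and the fits above carry the experiment as a block. Without the replicate block, with no experiment term, 0 genes were called in all 9 comparisons and the calls on Csf3, Il6 and Csf2rb were lost. In neutrophils at day 3 against day 1 (149 called) own-marker classes gave 54, no filter 312 and total counts 408. At day 5 against day 1 (439) own-marker classes gave 55 and total counts 1190, and at day 5 against day 3 (0) no filter gave 11 and only the 2 days compared 29. In monocytes and macrophages at day 3 (80) DESeq2 gave 518, own-marker classes 178, no filter 579, only the 2 days 198 and total counts 6. At day 5 (1078) DESeq2 gave 1634, no filter 1733 and only the 2 days 629. At day 5 against day 3 (3) DESeq2's size factors gave 6, DESeq2 108, own-marker classes 186, resolution 1 0, no filter 76 and only the 2 days 1249. The interaction at day 3 (2) gave 0 with own-marker classes, 152 with no filter and 1 with total counts. At day 5 (60) it gave 0, 414 and 723, and 119 at resolution 1, and at day 5 against day 3 (0) no filter gave 16. Its split at day 5 was 25 higher and 35 lower, against 23 and 700 with total counts and 42 and 29 with DESeq2's size factors. Leaving out 1 sum gave 57 to 703, 153 to 988 and 2 to 31 calls in neutrophils, 4 to 2396, 323 to 3314 and 0 to 863 in monocytes and macrophages, and 0 to 290, 0 to 630 and 0 to 17 in the interaction, in the same order of days. Among changes called in at least 1 of the settings compared, 1 changed sign: Csf3r in monocytes and macrophages at day 5 was 1.03 (adjusted p = 0.0394, edgeR) with own-marker classes against -0.09. Sign changes with no call either way, as of Csf1 in neutrophils, are not counted here. Of the levels over at least 20 UMIs, 17 of 150 moved by over 1.5 times with own-marker classes, 3 of 156 at resolution 1 and 1 of 156 with a mitochondrial limit of 20%. The largest was Il6 in CD45+ day 1 neutrophils, with 827 UMIs over 393 cells (317 CPM) against 24 UMIs over 217. Csf1 and Csf3r in CD45+ neutrophils were 1.60 to 2.81 times lower there. Depth limits Csf2 in every class and Csf3 and Il6 in the blood and heart pool, where floors are given.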

Other observations

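Over the 13 class sums of the CD45+ libraries with at least 30 cells, the genes most like each of the 8 in log2(CPM + 5), among 4223 genes with a mean of at least 20 CPM, are given as a description. The sums share libraries, classes and depth, and no test was run. Csf1 went most with Cxcr2, the chemokine receptor of neutrophils (Pearson r 0.99), Asprv1 (0.98) and G0s2 (0.98). Csf3 went with Serpinb2 (0.92), Gch1 (0.91) and Rnd1 (0.89), and Il6 with Thbd (0.93), Errfi1 (0.91) and Mt2 (0.90). Among the receptor chains, Csf1r went with Cmtm3 (0.97), Fos (0.97) and Stab1 (0.96), and Csf2ra with Slc15a3, Ralb and Pirb (0.96 each). Csf2rb was nearest to its paralog Csf2rb2 (0.98), then Alcam (0.93) and Cfp (0.93), and Csf3r to Ptgs2os2 (0.96), Sde2 (0.96) and Ifit3b (0.94). Csf2, with a mean of 0.604 CPM, was too low to be ranked.

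In the CD45+ libraries a cluster of 107 cells led by Saa3, Hp and Arg1 had 146 CPM of Il6, 42.4 CPM of Csf3 and 727 CPM of Csf1r, values that no comparison above uses. An unnamed cluster of 157 cells led by Fabp4, Jchain and Dcn, which mixes genes of endothelial cells, fibroblasts and plasma cells, held 101 Il6 UMIs (40.6 CPM) and 39 Csf1 UMIs (15.7 CPM).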
